A study of Mus musculus with 8 samples.

Results

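The 10 genes followed here move glucose into the cell and through the first steps of glycolysis: the transporter Slc2a1, the hexokinases Hk1 and Hk2, the isomerase Gpi1, the phosphofructokinases Pfkp, Pfkl and Pfkm, the regulatory enzyme Pfkfb3, the aldolase Aldoa and the phosphoglycerate kinase Pgk1. They were chosen by name, and their probe sets were taken by gene symbol from the platform annotation, which gave 20 of the 22690 probe sets on the array to 9 of the 10 genes. No probe set was matched to Gpi1, which was not analysed here. The cells were MCE301, a colonic epithelial line from mice that carry a temperature-sensitive SV40 large T-antigen transgene, so every array comes from cells with that transgene. RNA was taken after 0, 6, 12 and 24 h in 2 mM sodium butyrate, a product of bacterial fermentation in the colon and a histone deacetylase inhibitor, with 2 arrays at each time. The labels do not name separate cultures, so p-values measure only how far the arrays differ, and that spread may be technical. Untreated cells of the later times were not analysed here, so the effect of butyrate and that of time in culture cannot be told apart, and each change is of cells in butyrate against the cells at 0 h. The 3 comparisons with 0 h share its 2 arrays.

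The transporter encoded by Slc2a1, known as GLUT1, lets glucose enter along its gradient, and hexokinase traps it in the cell by adding a phosphate. After the isomerase, phosphofructokinase makes the step that commits the sugar to glycolysis, and it works as a tetramer of muscle (Pfkm), liver (Pfkl) and platelet (Pfkp) subunits. Aldolase then splits the sugar, and phosphoglycerate kinase makes ATP further down. Colonic epithelium is known for burning butyrate itself in its mitochondria, beside glucose.

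The 2% trimmed mean was 500.2 on each array, which shows a common scaling of the deposited signals. The 6 epithelial markers Epcam, Cdh1, Krt8, Krt18, Krt19 and Cldn4 lay above the median of all signals, 144.7, on all 8 arrays. Of 5 intestinal markers, Cdx2, Krt20 and Cdh17 did so too, while Vil1 and Cdx1 lay below it on all arrays. The markers of fibroblasts (5), immune cells (4), endothelium (4) and muscle (4) stayed below it on all 8 arrays. The epithelial markers summed to 70357 to 82506 at 24 h, against 48621 to 52623 at 0 h, and the intestinal ones to 13064 to 18808, against 2120 to 3049. Krt20 carried the second sum, with means of 15293 at 24 h and 1377 at 0 h, while Cdx2 (284.3 at 24 h, 484.8 at 0 h) and Cdh17 (341.9 at 24 h, 688 at 0 h) had lower means at 24 h. Their part in the results below was not tested. Median signals were 147 and 152.8 at 24 h, against 141.8 and 144.6 at 0 h.

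Butyrate-treated cells had more mRNA for glucose entry and for some isozymes of the pathway, and less for others. By 24 h, 6 of the 9 measured genes were higher than at 0 h (Slc2a1, Hk1, Pfkp, Pfkm, Pfkfb3 and Aldoa), 2 were lower (Hk2 and Pfkl), and Pgk1 did not pass the test. Of all 7340 genes tested, 24.6% were called higher and 23.5% lower, so the share of members that were lower is close to that of all genes. Of the 6, Pfkp and Pfkfb3 passed the filter through their arrays in butyrate, so they had to be higher there to be tested. The hexokinases and the phosphofructokinases each split: Hk1 rose while Hk2 fell, and Pfkp and Pfkm rose while Pfkl fell. In size, the changes at 24 h ran from a 2.38-fold fall of Hk2 to a 7.82-fold rise of Pfkp. Calls are at a Benjamini-Hochberg adjusted p under 0.05 in limma, fitted over 7340 genes, and folds are on the scale of the signal plus 32, which understates changes of low signals. In a signal from whole cultures, fewer cells that make an mRNA and less of it per cell cannot be told apart.

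The promoters of Slc2a1 and Pfkp, which rose, and of Hk2 and Pfkl, which fell, are shown because each of these genes has a single start in the RefSeq table (GRCm38.p6) and because Hk2 and Pfkl moved against the others. Each runs from 250 bases before the start to 50 after it, 5′ to 3′ on the gene's strand. They lie at chr4:119108495-119108794 (plus strand, Slc2a1), chr13:6648722-6649021 (minus strand, Pfkp), chr6:82774405-82774704 (minus strand, Hk2) and chr10:78009758-78010057 (minus strand, Pfkl). Capitals mark ACGTG and GCGTG, the core letters bound by hypoxia-inducible factors, or their reverse complements CACGT and CACGC.

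Slc2a1: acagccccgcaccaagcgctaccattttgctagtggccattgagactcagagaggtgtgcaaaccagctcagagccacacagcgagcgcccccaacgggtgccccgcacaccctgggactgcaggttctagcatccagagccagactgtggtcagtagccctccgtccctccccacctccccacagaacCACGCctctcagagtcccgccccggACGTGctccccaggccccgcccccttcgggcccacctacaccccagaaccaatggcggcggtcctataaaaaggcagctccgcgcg
Pfkp: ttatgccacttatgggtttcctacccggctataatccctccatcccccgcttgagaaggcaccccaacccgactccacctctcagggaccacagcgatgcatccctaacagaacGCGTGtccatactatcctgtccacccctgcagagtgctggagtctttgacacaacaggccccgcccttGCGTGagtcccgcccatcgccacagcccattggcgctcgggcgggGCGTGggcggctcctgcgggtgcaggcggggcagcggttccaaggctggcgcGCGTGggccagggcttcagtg
Hk2: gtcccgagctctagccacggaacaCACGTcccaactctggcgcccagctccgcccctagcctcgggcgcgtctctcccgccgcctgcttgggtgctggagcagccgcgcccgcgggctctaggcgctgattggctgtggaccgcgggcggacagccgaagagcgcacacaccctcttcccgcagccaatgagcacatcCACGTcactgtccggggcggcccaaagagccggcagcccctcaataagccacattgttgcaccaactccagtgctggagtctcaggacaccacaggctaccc
Pfkl: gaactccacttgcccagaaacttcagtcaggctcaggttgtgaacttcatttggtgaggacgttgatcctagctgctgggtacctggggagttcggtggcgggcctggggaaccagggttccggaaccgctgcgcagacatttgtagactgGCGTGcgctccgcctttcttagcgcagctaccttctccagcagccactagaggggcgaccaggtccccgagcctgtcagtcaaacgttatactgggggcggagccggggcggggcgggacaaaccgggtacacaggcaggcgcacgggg

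Slc2a1 held 2 such matches (1 ACGTG and 1 GCGTG), Pfkp 4 (all GCGTG), Hk2 2 (both ACGTG) and Pfkl 1 (GCGTG). Among the 4 shown, promoters of genes that rose and of genes that fell hold the letters. At least 1 match was found in 43.8% of the 32851 promoters of the table. The 6-letter E-box CACGTG, which contains ACGTG on both strands, was in none of the 4 and in 7.15% of all promoters. The GC box GGGCGG, searched on both strands, was found 2 times in Slc2a1, 4 in Pfkp, 3 in Hk2 and 3 in Pfkl, and at least once in 35.7% of all promoters. CCAAT, also on both strands, was found 1 time in Slc2a1, 1 in Pfkp, 2 in Hk2 and 0 times in Pfkl, and in 37.4% of all. All 10 genes had at least 1 promoter in the table, 17 in all. Of those not shown, Pgk1 and Gpi1 also have a single start, with 2 and 0 matches of ACGTG or GCGTG. Hk1, Pfkm, Pfkfb3 and Aldoa, which rose, have several starts, with 0 to 5 such matches each. The matches describe these windows and are not binding sites.

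**Figure D1:**
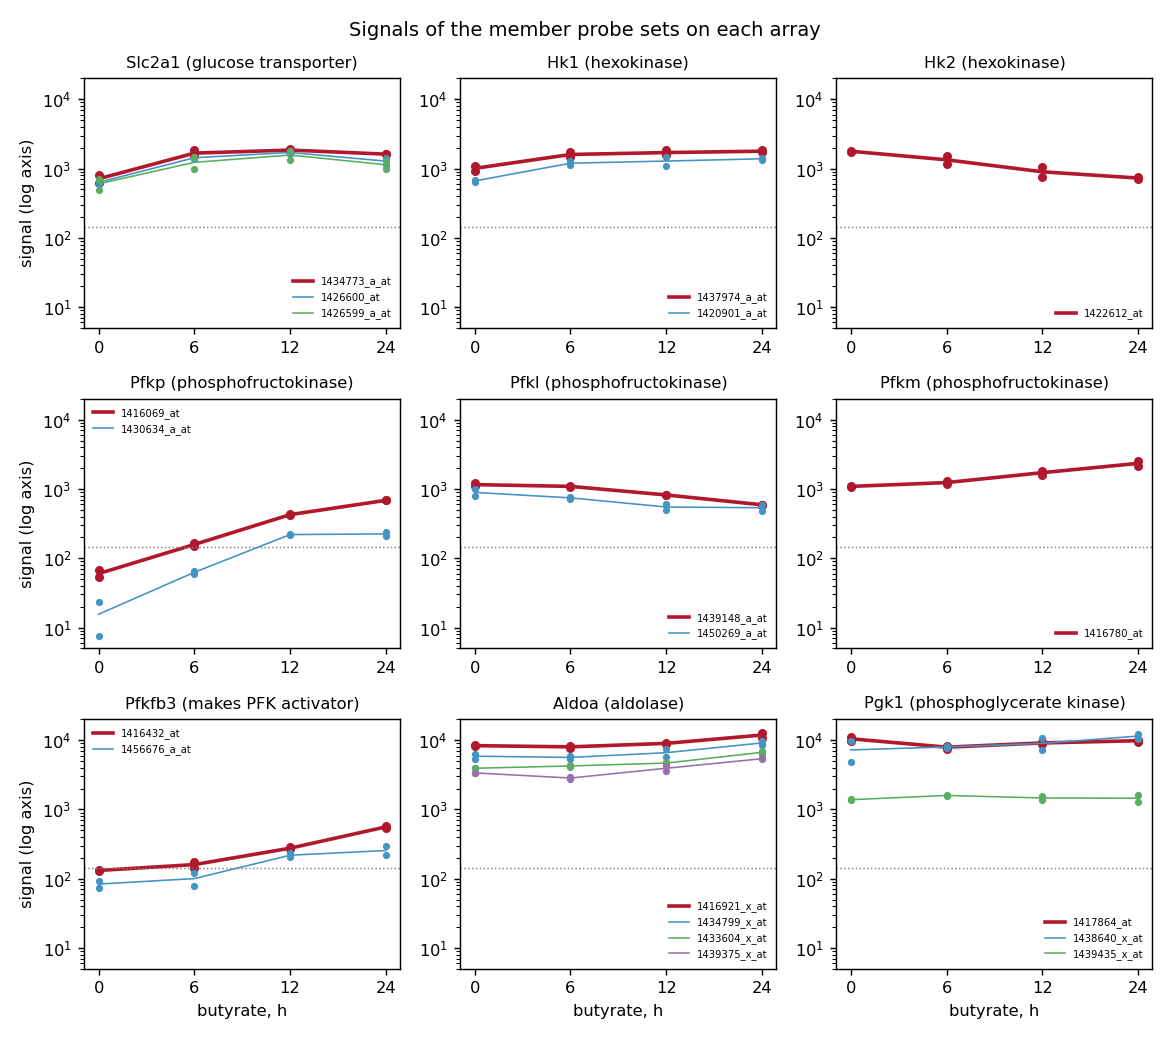
Signals of the 20 member probe sets on each array (points) and their means by time (lines), on a log axis, against hours in butyrate (evenly spaced). The thick red line is the probe set that represents the gene in the tests, the other colours are its other probe sets, and the dotted line is the median of all signals, 144.7. Slc2a1, Hk1, Pfkp, Pfkm and Pfkfb3 lie higher at 24 h than at 0 h on all their probe sets, Hk2 and Pfkl lower.

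Glucose transport was among the changes called at 6 h. Slc2a1 (probe set 1434773_a_at) had signals of 621.6 and 800.4 at 0 h, 1513 and 1828 at 6 h, 1811 and 1884 at 12 h, and 1624 and 1604 at 24 h. Every array in butyrate lay above both 0 h arrays. The log2 change against 0 h was 1.20 ± 0.17 at 6 h (SE of the fit, adjusted p = 0.00209), 1.35 ± 0.17 at 12 h (adjusted p = 0.00034) and 1.16 ± 0.17 at 24 h (adjusted p = 0.000434). After 6 h no further change passed the test: the log2 change of 24 h against 6 h was -0.04 (95% interval -0.43 to 0.34, adjusted p = 0.882). Its other probe sets, 1426600_at and 1426599_a_at, were called higher at all 3 times as well, with folds of 1.85 to 2.62.

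The hexokinases moved apart. Hk1, the hexokinase of most tissues, had signals of 1086 and 926.3 at 0 h, 1715 and 1479 at 6 h, 1842 and 1561 at 12 h, and 1834 and 1728 at 24 h (1437974_a_at). All arrays in butyrate lay above the 0 h arrays, and the change was in place by 6 h, with log2 changes of 0.65 ± 0.17 (adjusted p = 0.0274) at 6 h, 0.74 ± 0.17 (0.00728) at 12 h and 0.81 ± 0.17 (0.00294) at 24 h. Its 6 h call rests on few arrays: it was lost without 0 h replicate 1 (adjusted p = 0.0629), 0 h replicate 2 (0.162), 6 h replicate 1 (0.132) or 6 h replicate 2 (0.0507), and with no filter on low signals (0.0954). At 12 h the Hk1 call was lost without 0 h replicate 2 (0.0586) or 12 h replicate 1 (0.0571), and at 24 h with none of the arrays left out. The second Hk1 probe set, 1420901_a_at, rose 1.77-fold, 1.88-fold and 2.04-fold at 6, 12 and 24 h, with adjusted p of 0.0185, 0.0045 and 0.00138 in the fit over all probe sets.

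Hk2, the inducible hexokinase of muscle, fat and many tumours, had 1 probe set (1422612_at), with signals of 1822 and 1732 at 0 h, 1508 and 1167 at 6 h, 1050 and 745.5 at 12 h, and 699.1 and 759.5 at 24 h. All arrays in butyrate lay below both 0 h arrays. At 6 h the log2 change, -0.41 (95% interval -0.85 to 0.03, adjusted p = 0.193), did not pass the test. Hk2 was lower at 12 h by a log2 change of -0.98 ± 0.20 (adjusted p = 0.00384) and at 24 h of -1.25 ± 0.20 (adjusted p = 0.000582). It was also lower at 24 h than at 6 h (log2 change -0.84, adjusted p = 0.0112). That call failed without 6 h replicate 1 (0.0782) or 24 h replicate 1 (0.065).

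Of the phosphofructokinase subunits, Pfkp changed most. Its signals (1416069_at) stood at 67 and 53 in the 0 h cells, 148.8 and 167.4 at 6 h, 430.3 and 422.4 at 12 h, and 683.7 and 687.2 at 24 h. Each time lay above the one before it on both arrays. The log2 change against 0 h was 1.05 ± 0.16 at 6 h (adjusted p = 0.00234), 2.32 ± 0.16 at 12 h (1.69e-05) and 2.97 ± 0.16 at 24 h (1.58e-06). The step at 12 h against 6 h was called (log2 change 1.27, adjusted p = 0.00494), but not with no filter (0.0682). That at 24 h against 12 h was called by a narrow margin (log2 change 0.65, adjusted p = 0.0392), and 12 of the 19 alternative settings lost it, with adjusted p of 0.0529 to 0.239. The second probe set, 1430634_a_at, had 15.6 ± 11.2 at 0 h, 62.7 ± 4.03 at 6 h, 219.6 ± 9.40 at 12 h and 224.7 ± 19.5 at 24 h (mean ± SD, n = 2). Its log2 change at 24 h was 2.45 on the scale of the signal plus 32, which understates it because both 0 h signals lay below 32. Its change between 12 and 24 h was not called (log2 change 0.03, adjusted p = 0.965).

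Pfkp lay below the median of all signals at 0 h and passed the filter through its arrays in butyrate, as did Pfkfb3, so both had to be higher in butyrate to be tested. At 0 h the Pfkp signal is near the added constant, and its 24 h log2 change ran from 2.30 to 3.50 over the alternatives.

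Pfkl, the liver subunit, went the other way. Its signals (1439148_a_at) were 1108 and 1205 at 0 h, 1116 and 1063 at 6 h, 828 and 812.1 at 12 h, and 593.4 and 589.2 at 24 h. The 6 h arrays overlapped those at 0 h, and the 12 and 24 h arrays lay below them. At 6 h the log2 change was -0.08 (95% interval -0.41 to 0.25, adjusted p = 0.768). At 24 h Pfkl was lower by -0.93 ± 0.15 (adjusted p = 0.000607), and at 12 h by -0.48 ± 0.15 (adjusted p = 0.0288), the 12 h call being lost without any of 0 h replicate 1 (0.0682), 0 h replicate 2 (0.138), 12 h replicate 1 (0.094) or 12 h replicate 2 (0.114), and with no filter (0.0729). Its second probe set, 1450269_a_at, was called lower at 12 h (1.59-fold, adjusted p = 0.0222) and at 24 h (1.63-fold, adjusted p = 0.0126). On this probe set the changes of 24 h against 12 h (log2 change -0.04, adjusted p = 0.953) and against 6 h (-0.46, adjusted p = 0.108) were not called.

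Pfkm, the muscle subunit, rose later than Pfkp. Signals of its single probe set (1416780_at) were 1072 and 1107 at 0 h, 1191 and 1283 at 6 h, 1822 and 1616 at 12 h, and 2555 and 2129 at 24 h. Each time lay above the one before it on both arrays. The log2 change was 0.18 at 6 h (95% interval -0.18 to 0.54, adjusted p = 0.521), 0.64 ± 0.16 at 12 h (adjusted p = 0.0118) and 1.08 ± 0.16 at 24 h (adjusted p = 0.000432). The 12 h call was lost without 0 h replicate 1 (0.0622) or 12 h replicate 1 (0.0769). The 4 muscle markers (Myh1, Ckm, Acta1 and Des) summed to 277.8 to 349.4 at 24 h, against 211.6 to 218.4 at 0 h. Each of the 4 lay below the median signal on all arrays, and Acta1 did not rise (means of 72.2 at 24 h and 73.25 at 0 h). The shift was not particular to muscle. Sums were also higher for endothelial markers (190.3 to 225.8, against 86.2 to 160.5) and immune markers (203 to 254.9, against 169.1 to 170). Those of fibroblast markers overlapped (200 to 261.7, against 209.2 to 335.5). The part of the muscle marker shift in the Pfkm result was not tested.

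**Figure D2:**
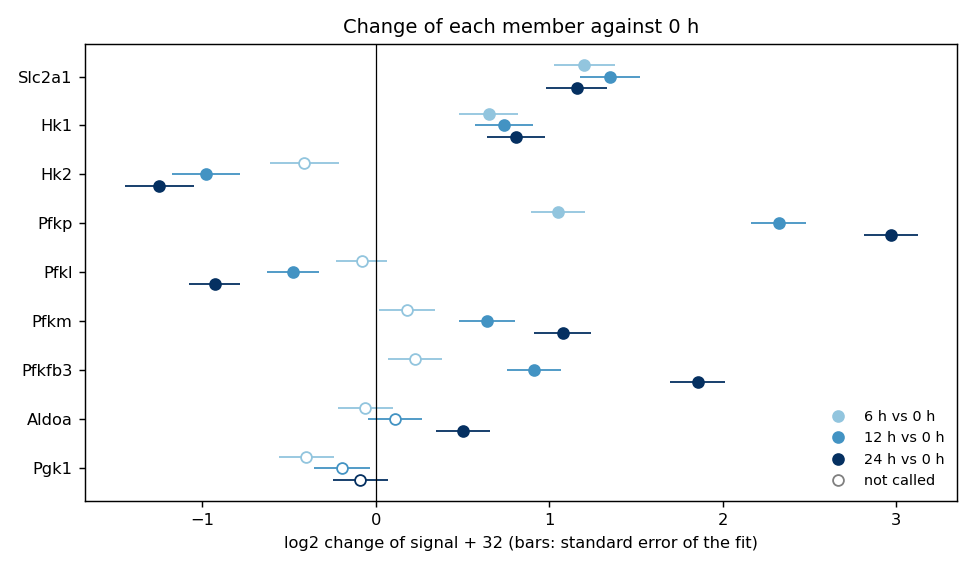
Log2 change of the signal plus 32 against 0 h for the 9 tested genes at 6, 12 and 24 h, with the standard error of the fit as bars. Filled points were called at an adjusted p under 0.05. The open points at 24 h are those of Pgk1, and Hk2 and Pfkl lie on the left of 0 at all 3 times.

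Pfkfb3 makes the sugar phosphate that activates phosphofructokinase, and it rose late. Its signals (1416432_at) were 129.2 and 133.5 at 0 h, 176.1 and 143.4 at 6 h, 283.9 and 266.9 at 12 h, and 541.2 and 577.1 at 24 h. The 6 h arrays lay above those at 0 h without passing the test (log2 change 0.23, 95% interval -0.12 to 0.58, adjusted p = 0.381). Pfkfb3 was higher at 12 h by 0.91 ± 0.16 (adjusted p = 0.00167) and at 24 h by 1.86 ± 0.16 (adjusted p = 1.31e-05), or 3.62-fold. It was higher again at 24 h than at 12 h (log2 change 0.94, adjusted p = 0.00759), which did not hold without 12 h replicate 2 (0.0653) or 24 h replicate 2 (0.0584). The call at 12 h against 6 h (log2 change 0.69, adjusted p = 0.0409) was lost under 12 of 19 alternatives, with adjusted p of 0.0513 to 0.179. The second probe set, 1456676_a_at, was called 2.17-fold higher at 12 h and 2.47-fold higher at 24 h, and its 24 h against 12 h change was not called (log2 change 0.19, adjusted p = 0.714).

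Of the members further down the pathway, Aldoa and Pgk1, all probe sets changed less than 2-fold. Aldoa, the aldolase of muscle and most growing cells, had signals of 8469 and 8196 at 0 h, 7726 and 8266 at 6 h, 9060 and 8907 at 12 h, and 10867 and 12825 at 24 h (1416921_x_at). At 24 h it was higher by a log2 change of 0.50 ± 0.16 (adjusted p = 0.0225), and at 6 h (-0.06, adjusted p = 0.847) and 12 h (0.11, adjusted p = 0.622) it was not called. The 24 h call was lost without 0 h replicate 1 (0.0707), 0 h replicate 2 (0.0942) or 24 h replicate 2 (0.142), and with no filter (0.058). The other Aldoa probe sets, 1434799_x_at, 1433604_x_at and 1439375_x_at, were all called higher at 24 h, by 1.55-fold, 1.69-fold and 1.60-fold. The suffix x marks probe sets whose probes can also match related transcripts, and all 4 Aldoa probe sets have it.

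Pgk1 was not called at any time. Its signals (1417864_at) were 11277 and 9655 at 0 h, 7480 and 8344 at 6 h, 9380 and 8836 at 12 h, and 9445 and 10179 at 24 h. The 6 h and 12 h arrays lay below those at 0 h, and the 24 h arrays overlapped them. The log2 change was -0.40 at 6 h (95% interval -0.75 to -0.05, adjusted p = 0.122), -0.20 at 12 h (-0.55 to 0.16, adjusted p = 0.37) and -0.09 at 24 h (-0.44 to 0.27, adjusted p = 0.677). The probe sets of Pgk1 did not move alike. At 6 h, 1438640_x_at had a log2 change of 0.23 (adjusted p = 0.684) and 1439435_x_at one of 0.20 (adjusted p = 0.516), both in the fit over all probe sets. At 24 h, 1438640_x_at had a log2 change of 0.74 (95% interval 0.08 to 1.40, adjusted p = 0.066) and 1439435_x_at one of 0.06 (adjusted p = 0.809). In 1438640_x_at the 0 h arrays were far apart, at 4801 and 9642.

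**Figure D3:**
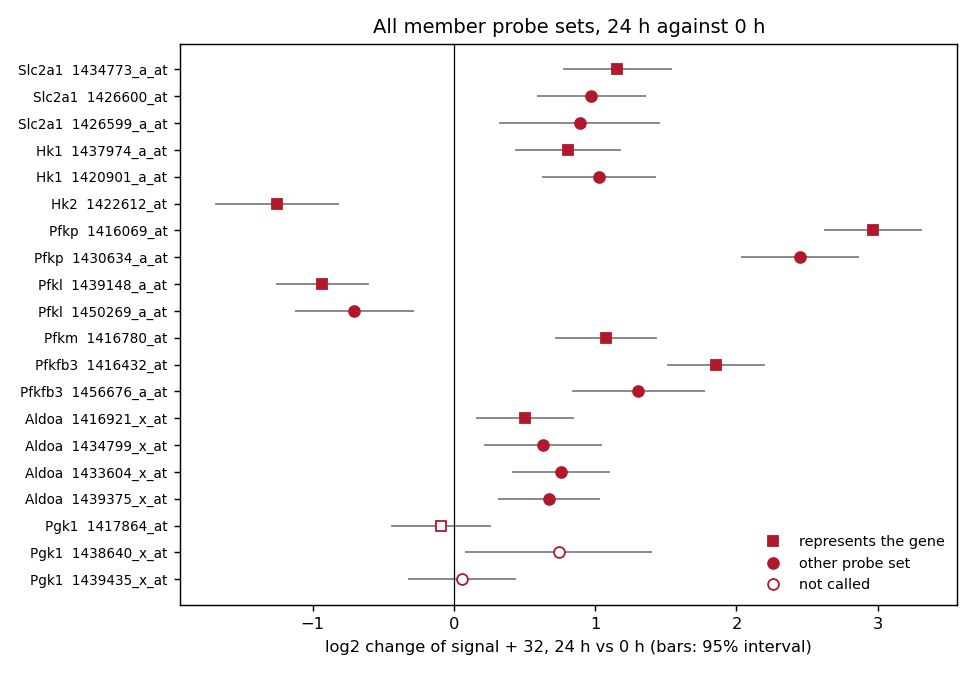
Log2 change of the signal plus 32 at 24 h against 0 h for all 20 member probe sets, with 95% intervals. Squares represent the gene, circles are its other probe sets, and filled marks were called. The probe sets of Slc2a1, Hk1, Pfkp, Pfkl, Pfkfb3 and Aldoa lie on the same side of 0 within each gene, and the 3 of Pgk1 are not called.

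Counted by time, 3 of the 9 measured genes were called higher at 6 h (Slc2a1, Hk1 and Pfkp), where 9.06% of the 7340 tested genes were. None was called lower by limma at 6 h, against 6.68% of all tested genes, and 1 (Pgk1) was lower at an unadjusted p under 0.05. That was on 1417864_at only, and the other probe sets of Pgk1 were higher at 6 h without a call. At 12 h, 5 were higher (Pfkm and Pfkfb3 had joined) and 2 lower, where 18.1% and 17.5% of all genes were called. At 24 h, 6 were higher and 2 lower, against 24.6% and 23.5% of all genes. The median log2 change of the 9 was 0.18 at 6 h, 0.64 at 12 h and 0.81 at 24 h, and that of all tested genes was 0.01, 0.03 and 0.04. Pfkp and Pfkfb3, which had to be higher in butyrate to be tested, count in this median of the 9 and, where called, among the higher genes. Of the 20 probe sets, 7 were called higher and 0 lower at 6 h, 10 and 3 at 12 h, and 14 and 3 at 24 h. The share of all kept probe sets called was not counted, and the percentages above are of genes, so these counts have no background. Probe sets of one gene share its mRNA and are not separate evidence.

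Between neighbouring times few genes were called. At 12 h against 6 h, Pfkp and Pfkfb3 were higher, where 2.03% of all tested genes were, and 0 members were lower, against 2.14%. Hk2 and Pfkl were lower there at an unadjusted p under 0.05 only. At 24 h against 12 h, Pfkp and Pfkfb3 were again called higher, against 1.81% of all genes, and 0 members lower, against 3.58%, with Pfkl lower at an unadjusted p under 0.05. Over the longer step, 24 h against 6 h, Pfkp, Pfkm, Pfkfb3 and Aldoa were higher and Hk2 and Pfkl lower, where 12.2% and 14% of all genes were called. The Aldoa call (log2 change 0.56, adjusted p = 0.0239) was lost under 6 of 19 alternatives, with adjusted p up to 0.144. Slc2a1 and Hk1 had no called change after 6 h.

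The unequal changes of the isozymes were read within each array, as the difference between the log2 signals of their probe sets. The level of that difference depends on the probes and has no meaning of its own, and its shift between times can also differ with the probe sets used. Pfkp minus Pfkl was -3.52 and -3.86 at 0 h, -2.67 and -2.46 at 6 h, -0.90 and -0.89 at 12 h, and 0.19 and 0.21 at 24 h. The shift from the 0 h mean was 1.13 at 6 h, 2.80 at 12 h and 3.90 (14.9-fold) at 24 h. Pfkp minus Pfkm shifted by 0.87, 1.68 and 1.89 at these times. Hk2 minus Hk1 was 0.73 and 0.88 at 0 h, -0.18 and -0.33 at 6 h, -0.79 and -1.03 at 12 h, and -1.35 and -1.15 at 24 h, a shift of -2.06 at 24 h. With the other probe set of each gene that has one, an alternative chosen after seeing the data, the shift at 24 h was 3.15 for Pfkp minus Pfkl, 1.37 for Pfkp minus Pfkm and -2.28 for Hk2 minus Hk1. For the probe sets that represent the genes, the groups of arrays did not overlap in any of the 9 comparisons with 0 h. The comparisons share the 0 h arrays, and those with Pfkp share its signals. How often other pairs of genes separate in this way was not counted. An exact two-sided permutation test of 2 arrays against 2 cannot go below p = 0.333, and each of the 9 comparisons gave that value.

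**Figure D4:**
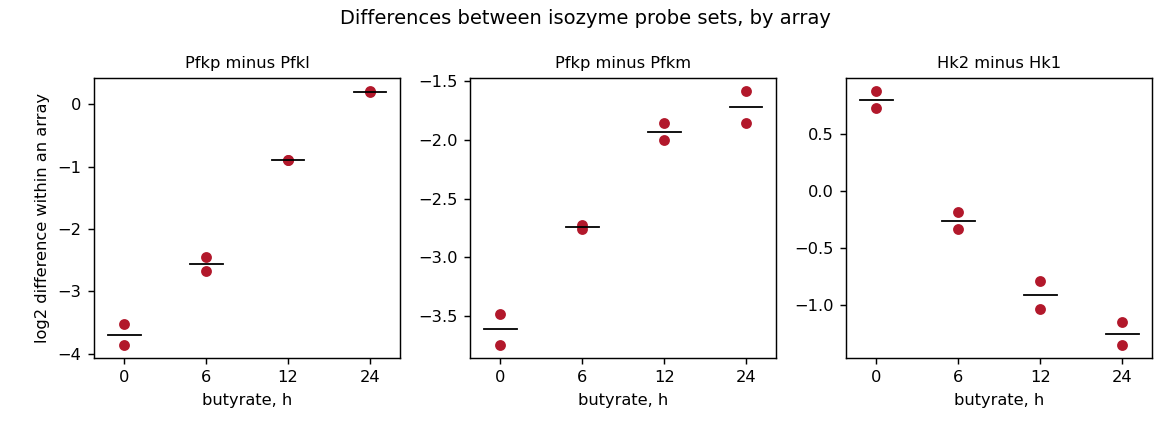
Difference between the log2(signal + 32) of isozyme probe sets within each array (points) with the mean of each time (lines), against hours in butyrate (evenly spaced). The vertical axes differ between panels, and the value 0 has no meaning because the probe sets differ. Pfkp minus Pfkl shifted by 3.90 and Hk2 minus Hk1 by -2.06 between the means of 0 h and 24 h.

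The genes whose time course lay nearest to 3 of the members were found over the 8 arrays, as the root mean square difference of the log2 change from the 0 h mean. Nearest to Slc2a1 were Nprl2 (0.108), Reep6 (0.115) and Clec16a (0.116), among 55 genes within 0.25. Nearest to Pfkp were Abhd3 (0.155), Ndrg1 (0.197) and B2m (0.206), among 4 of the 7245 genes compared within 0.25. Nearest to Hk2 were Frk (0.127), Gja1 (0.132) and Abcb1b (0.14), among 121 within 0.25. The names depend on the constant added to the signals: with 100 in place of 32, 0 of the 3 nearest to Pfkp and 1 of the 3 nearest to Slc2a1 stayed, and with 1, 1 of the 3 nearest to Pfkp and 1 of the 3 nearest to Hk2.

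Lists of genes around these steps were described in the same fit, and their counts at 24 h stand beside the 24.6% of all tested genes called higher and the 23.5% called lower. Of 12 other glucose transporters, 9 had a probe set, and the 2 that passed the filter on low signals were both called higher at each time. Slc2a8, a transporter of internal membranes, was at 519 at 24 h, against 107 at 0 h (3.97-fold, adjusted p = 3.06e-05). Slc2a4, the insulin-responsive transporter of muscle and fat, was at 186 at 24 h, against 89.2 at 0 h (1.81-fold, adjusted p = 0.00645). Without 0 h replicate 1 it was called at no time (adjusted p = 0.183, 0.114 and 0.0661 at 6, 12 and 24 h). Its 6 h call was also lost without 6 h replicate 1 (0.111) or 2 (0.0664) and with no filter (0.1), its 12 h call without 12 h replicate 2 (0.0768) and with no filter (0.0521), and its 24 h call without 24 h replicate 1 (0.0596). Both genes passed the filter through their arrays in butyrate. Of the 3 tested genes among other upper glycolysis and gluconeogenesis enzymes, the aldolase Aldoc was 3.06-fold higher at 24 h (adjusted p = 0.000105), and Pck2, the mitochondrial enzyme that makes phosphoenolpyruvate, was 2.29-fold lower (adjusted p = 0.000599). Adpgk was not called.

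Lower glycolysis held few calls. Of 6 tested genes, 1 was called: Eno2, an enolase known from neurons, was at 195.7 at 24 h, against 48.9 at 0 h (2.86-fold higher, adjusted p = 0.000293), and passed the filter through its 24 h arrays. Tpi1, Pgam1, Eno3, Pkm and Bpgm were not called, though Bpgm (adjusted p = 0.0528) was called under 8 of 19 alternatives, the replicate block among them, with adjusted p of 0.0157 to 0.0489. The list's median log2 change at 24 h was 0.24, beside 0.81 for the 9 genes above and 0.04 for all tested genes. The 0.81 includes Pfkp and Pfkfb3, and the 0.24 includes Eno2, which had to be higher in butyrate to be tested. Of 12 genes of lactate and pyruvate handling, 5 rose and 1 fell at 24 h. Pcx, which turns pyruvate to oxaloacetate, rose 5.10-fold (it too passed the filter through butyrate arrays), the mitochondrial pyruvate carrier subunit Mpc1 3.16-fold and the pyruvate dehydrogenase kinase Pdk1 2.67-fold. Ldha, the lactate dehydrogenase of glycolytic cells, fell 1.44-fold (adjusted p = 0.0198). Its call failed without 0 h replicate 2 (0.127) or 24 h replicate 1 (0.101), and with no filter (0.0534). Ldhb, its partner subunit and one of the 5, lost its call without 0 h replicate 2 (0.171), 24 h replicate 1 (0.105) or 24 h replicate 2 (0.0702), and with no filter (0.0658).

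The side branches moved in both directions. In the pentose phosphate pathway, 1 of 9 tested genes rose at 24 h (Taldo1, 1.91-fold) and 3 fell (Rpia 2.28-fold, Prps2 1.80-fold and Pgd 1.49-fold). Taldo1 lost its call without 0 h replicate 1 (0.0674) or 24 h replicate 2 (0.0759), and Pgd without 0 h replicate 1 (0.061) or 24 h replicate 1 (0.0658). In the glycogen and hexosamine branches, 3 of 19 were called higher and 2 lower, led by the phosphoglucomutase Pgm2 (2.33-fold higher). Gfpt1 lost its call under 13 of 19 alternatives, Gbe1 under 11 of 18 and Pmm2 under 2, and 0 genes were lower without 24 h replicate 2. The medians of these lists at 24 h were 0.07 and 0.08, beside 0.04 for all tested genes.

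Among 18 tested regulators of glycolysis, 7 were higher and 4 lower at 24 h. Txnip, which is known to hold glucose uptake back, rose 17.6-fold and the MAX partner Mxi1 2.87-fold. The prolyl hydroxylase Egln3 was at 178 at 24 h, against 21.9 at 0 h. It passed the filter only through its 24 h arrays, and its log2 change ran from 1.20 to 3.33 over the alternatives. Myc, which is known to drive glycolytic genes, fell 2.10-fold and the kinase Akt1 2.04-fold. Calls were lost for Arnt under 11 of 19 alternatives, for Foxk2 under 6, for Stk11 under 4 and for Egln1 under 3. With 1 array left out, 5 to 8 regulators were higher and 2 to 4 lower, the 2 being without 0 h replicate 1. Hif1a was not called at 6, 12 or 24 h (adjusted p = 0.909, 0.865 and 0.518). Its 2 arrays were far apart at 6 h (1921 ± 902, mean ± SD) and 12 h (1903 ± 839), so the missing call of Hif1a says little. Of 13 tested hypoxia-responsive genes, a set that is often described together with Slc2a1 and Pgk1, 8 rose and 2 fell at 24 h, with a median of 0.76. Ndrg1 rose 9.29-fold and Bnip3 4.05-fold, while the histone demethylase Kdm3a fell 1.54-fold, a call lost without 0 h replicate 1 (0.109) or 24 h replicate 2 (0.0746). Higd1a lost its call under 13 of 19 alternatives, Vegfa under 5 of 18 and P4ha2 under 2 of 19. With 1 array left out, 6 to 8 of this list were higher and 0 to 1 lower, the 0 being without 24 h replicate 2. The lists overlap: Egln3 and Mxi1 are also among the regulators, and Pdk1 among the genes of lactate and pyruvate handling. Their rises are counted in both lists. Besides the genes named so above, Vegfa, Mlxipl, Pdk2 and Gfpt1, all counted among the rises of their lists, passed the filter only through arrays in butyrate. They had to be higher in butyrate to be tested. These lists were chosen with results of these data known, and their counts are descriptions.

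**Figure D5:**
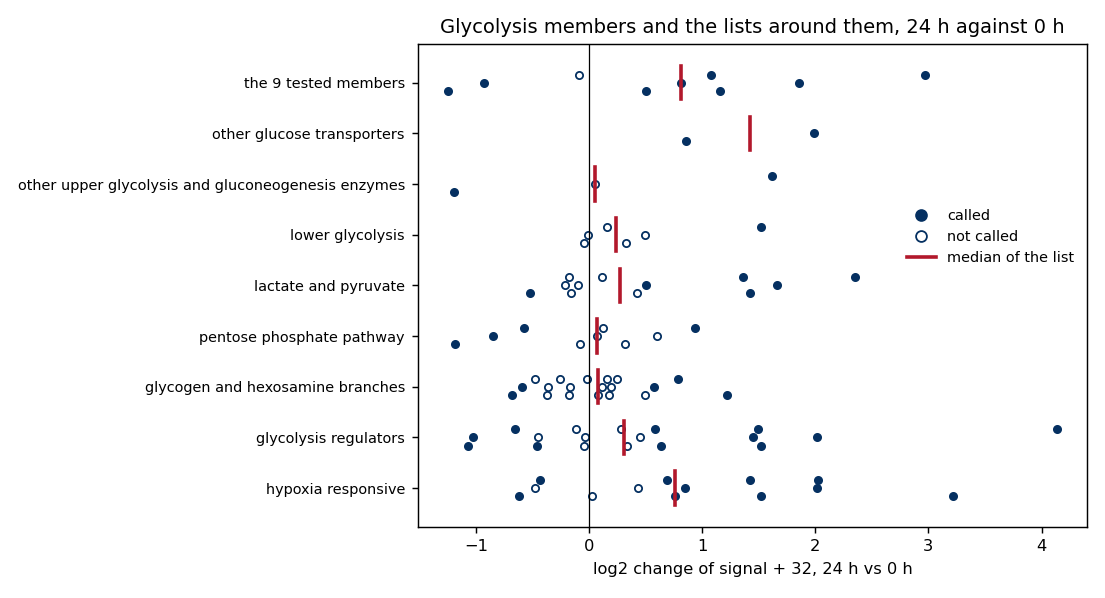
Log2 change of the signal plus 32 at 24 h against 0 h for each tested gene of the 9 lists (points, filled where called), with the median of each list as a red line. The 9 members have a median of 0.81, lower glycolysis one of 0.24, and Txnip lies farthest to the right. Both medians include genes that passed the filter only through arrays in butyrate.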

How the data were processed

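Phycoerythrin-labelled total RNA was measured on GeneChip Mouse Expression Array 430A arrays, per the labels and the design text. The deposited table gives an intensity (signal) per probe set on a linear scale for 8 arrays, with equal 2% trimmed means, so the authors' values had been scaled; how the probes were summarised is not stated in the sources used. Of 22690 probe sets, 64 are controls; the platform annotation names a single gene for 20380, several for 691, and does not list 1555.

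Signals were taken as log2(signal + 32). Probe sets with at least 2 of 8 arrays above the median of all values, 144.7, were kept (11505), with each gene represented by its highest mean (7340 genes). One limma model (limma 3.58.1 under R 4.3.3) took in the 8 arrays (residual df 4, prior df 6.37), with Benjamini-Hochberg adjustment. The fit was also run on simulated data with independent noise on each array. That run cannot test it under the shared deviations of same-numbered arrays given below. Other probe sets were tested in a fit over all kept ones. The arrays' number, 2 a time, limits the precision. The named genes are the members, up to 3 called rises and falls per list and comparison, and the 3 nearest genes of Slc2a1, Pfkp and Hk2. Genes named as not called, or for a call gained or lost under an alternative, fall outside this rule and were chosen after their values were seen. Members and lists were chosen with earlier results of these data known.

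Deviations of same-numbered arrays from their time means correlated in each of the 6 pairs of times (r = 0.125 to 0.382 across genes). Replicate numbers therefore pair the arrays in an alternative, the replicate block, from the data and not the labels. The main fit left this pairing out. With the block, 911 genes were called higher and 684 lower at 6 h against 0 h, in place of 665 and 490. Alternatives were the added constant, the filter, scaling, probe set choice, replicate block, variance moderation, arrays in the fit and each array left out. Protein sequences were not used here.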

Additional observations from a re-analysis of the deposited data

How the results depend on the processing

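The log2 changes of the 9 genes in 6 comparisons gave 1026 values over 19 alternatives, of which 973 kept their side of the threshold and 53 lost the call. In 0 of them did the direction reverse with a call in either setting. Changes without a call could change sign, such as that of Pgk1 at 24 h against 0 h, which ran from -0.20 to 0.24. The calls lost are named beside their genes in the report. In counts of genes called, the 2 lower at 12 h were 1 with no filter on low signals and 1 to 2 with 1 array left out, and the 5 higher at 12 h were 3 to 5, the 3 being without 12 h replicate 1. Counting changes of at least 2-fold only, there were 2 higher at 6 h, 2 higher and 0 lower at 12 h, and 4 higher and 1 lower at 24 h. At that threshold 1 was higher at 12 h against 6 h and 0 at 24 h against 12 h. The share of all tested genes passing it was not counted. Of the 2 higher at 12 h against 6 h, 0 were called with no filter, and 1 each with all named probe sets, with eBayes set to trend and robust, from the 4 compared arrays alone, and with any of the 8 arrays left out (1 to 1). Of the 2 higher at 24 h against 12 h, 1 each was called with a constant of 1, no filter, all named probe sets, the mean of a gene's probe sets, eBayes set to trend and robust, and the 4 compared arrays alone, and 0 to 2 with 1 array left out. The replicate block changed 0 of the calls of the 9 genes, with 6 higher and 2 lower at 24 h as without it. In the surrounding lists it added calls for Bpgm, Egln2, Mtor and Ero1a at 24 h (adjusted p = 0.0157, 0.0374, 0.0457 and 0.0457), which other settings also made: 8 of 19 alternatives called Bpgm, 5 each Egln2 and Mtor, and 3 Ero1a.

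Over all genes, the 665 higher and 490 lower at 6 h were 272 and 158 with no filter, and 299 to 403 and 160 to 286 without any 1 of the 0 h or 6 h arrays. The 1332 and 1281 at 12 h numbered 879 and 846 when 0 h replicate 2 was left out, and 886 and 846 when 12 h replicate 2 was; leaving out 0 h replicate 1 gave 779 lower. The 149 and 157 at 12 h against 6 h were 0 and 1 with no filter, 96 and 88 with a constant of 1, 32 and 14 with only the 4 arrays compared, and 267 and 314 with the replicate block, and the 157 were 96 with all named probe sets; without any 1 of the 6 h or 12 h arrays they were 24 to 56 and 13 to 17, and the 157 were 84 without either 0 h array. The 133 and 263 at 24 h against 12 h were 29 and 88 with no filter, and the 133 were 86 with a constant of 1 and 249 with the replicate block; without any 1 of the 12 h or 24 h arrays they were 26 to 66 and 77 to 143. The 896 and 1029 at 24 h against 6 h were 573 and 665 without 24 h replicate 2, the 896 were 534 without 24 h replicate 1, and the 1029 were 650 with no filter. With a constant of 1 the shift of Pfkp minus Pfkl at 24 h was 4.47 in place of 3.90, and with the other probe set of each gene, an alternative chosen after seeing the data, it was 3.15. Signals below 32, 21.2% to 26.4% of an array, carry little information.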
